A study of Homo sapiens with 6 samples.

Results

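In Raji cells, 10 genes around GILZ, FOXO signalling and quiescence were followed: TSC22D3, which encodes the glucocorticoid-induced leucine zipper GILZ, its relatives TSC22D1 and TSC22D4, the forkhead factors FOXO1 and FOXO3, and the FOXO or glucocorticoid responsive genes KLF2, PIK3IP1, SESN1, SESN3 and NR3C1. They were selected by symbol, and all 10 were found on 1 row each among 58735 genes. The choice was made with the difference between bryostatin and DMSO already known, TSC22D3 being known to lie lower with bryostatin. That difference is therefore given for these genes as a description, with no p-value. Of the 10 genes, 9 had a mean level of at least 1 FPKM and entered the fit over 11071 genes, while KLF2 was left out. FPKM is fragments per kilobase of gene, scaled to a library size that the sources used here do not define.

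Raji is a human B-cell line from a Burkitt lymphoma, here carrying a GFP and firefly luciferase reporter in every sample. Bryostatin-1, a marine macrolide ligand of protein kinase C, was given at 1 nM overnight to the cells of 3 libraries, and DMSO alone to those of the other 3, both at 37 °C. Polyadenylated RNA was sequenced. Whether the libraries came from separate cultures is not stated, so the spread between them may be technical.

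GILZ is a leucine zipper protein induced by glucocorticoids and by FOXO3, and it restrains NF-kB and AP-1 signalling in lymphoid cells. FOXO factors act in the nucleus when AKT signalling is low. AKT phosphorylates them, and they are then held in the cytoplasm. Their targets include inhibitors of the PI3K and mTORC1 pathways, and in mouse lymphocytes also Klf2, which maintains quiescence and directs homing.

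Reads on genes, recovered from the FPKM values, numbered between 19405370 and 24468270 per library. B-cell markers were all detected, with summed levels of 1116 to 1491 FPKM in bryostatin libraries and 1079 to 1592 FPKM in DMSO libraries. T-cell markers other than TRAC averaged at most 0.189 FPKM, and the summed myeloid markers stayed at or below 0.560 FPKM in each library. TRAC itself was at 11.7, 3.28 and 13.5 FPKM in bryostatin replicates 1 to 3. In DMSO replicates 1 to 3 it was at 3.66, 11.5 and 3.12 FPKM, so its level varied widely within both groups. The 12 proliferation genes, added later and examined beside the quiescence regulators, were all higher on average with bryostatin. Of all tested genes, 46.1% had a lower mean with bryostatin. Only 3 of the 12 were higher without overlap between groups, where 12.9% of all tested genes were. The summed levels of the 12 genes were 1038, 839.7 and 876.2 FPKM in bryostatin replicates 1 to 3. In DMSO replicates 1 to 3 they were 450.7, 553.3 and 882.3 FPKM. DMSO replicate 3 thus lay within the bryostatin range, apart from the other DMSO libraries.

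To show where forkhead factors could be read from sequence, the promoter windows of RefSeq on GRCh38.p14, of 300 bases each, were searched for the FOXO recognition letters GTAAACA on both strands. All 10 genes had at least 1 window, 29 in all, and 3 of these 29 windows held the letters, against 3.42% of all 35116 windows. The 3 stretches below belong to TSC22D3, PIK3IP1 and NR3C1, read 5′ to 3′ on the strand of the gene, which is the minus strand for each. Capitals mark the match, which here reads TGTTTAC, the reverse complement.
TSC22D3: agtgctgaacTGTTTACagtcccagcc
PIK3IP1: aaagagaggcTGTTTACcagaacagca
NR3C1: aaggggcggcTGTTTACttcctttttt
The TSC22D3 stretch lies at chrX:107717193-107717219, the PIK3IP1 stretch at chr22:31292456-31292482 and the NR3C1 stretch at chr5:143403326-143403352. The TSC22D3 match ends 141 bases before one of 4 annotated RefSeq starts, in a stretch that no GENCODE exon of the gene covers. The PIK3IP1 match begins 16 bases after one of 2 starts and the NR3C1 match ends 53 bases before one of 7 starts, both inside annotated untranslated exons. The exon-free bases around the TSC22D3 match inside its window, 177 of them at chrX:107717136-107717312, are given because the results turn on TSC22D3. On the strand of the gene they begin at the edge of the window and not at an exon, so the exon-free stretch may be longer.
TSC22D3 upstream: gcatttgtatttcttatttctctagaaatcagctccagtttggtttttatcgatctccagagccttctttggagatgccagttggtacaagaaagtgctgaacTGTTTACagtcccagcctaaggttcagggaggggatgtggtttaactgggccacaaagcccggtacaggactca
A match describes letters in a window and not a bound site. The palindromic glucocorticoid response element, AGAACA and TGTTCT with any 3 bases between, was in 0 of the 29 windows and in 0.00285% of all windows, which says only that these letters are not within these windows.

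TSC22D3 had the largest difference of the 10 genes, its mean being lower in bryostatin-treated cells. It is gene ENSG00000157514 on chromosome X (107713221 to 107777342, minus strand, hg38), with 17 annotated transcripts of 17 different starts that the table sums. Its level was 10.7, 18.4 and 16.6 FPKM in bryostatin replicates 1 to 3, against 45.6, 31.3 and 20.4 FPKM in DMSO replicates 1 to 3. No bryostatin library reached the lowest DMSO library, but DMSO replicate 3 stood closer to bryostatin replicate 2 than to either other DMSO library. The mean was 15.2 ± 3.98 FPKM with bryostatin and 32.4 ± 12.6 FPKM with DMSO (SD, n = 3 each), so the bryostatin mean was 46.9% of the DMSO mean. Measured in log2(FPKM + 1), where the added 1 compresses the differences of low genes, it was -1.0 with a standard error of 0.30.

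The spread of TSC22D3 within the groups was wide. Its pooled standard deviation within groups, 0.48 on the log2 scale, was larger than that of 96.3% of the genes tested. Counting error is small beside it, since each library held between 971 and 5355 reads of the gene. The nearest libraries of the groups, bryostatin replicate 2 and DMSO replicate 3, had exact Poisson 95% intervals of 17.5 to 19.2 FPKM and 19.5 to 21.4 FPKM, which did not overlap. Such intervals cover counting error only. Leaving out DMSO replicate 1 gave a log2 difference of -0.73, and leaving out DMSO replicate 3 gave -1.29. The libraries with most TSC22D3, DMSO replicates 1 and 2, were also those with the lowest summed proliferation genes, at 450.7 and 553.3 FPKM. Bryostatin replicate 1 had the least TSC22D3 and the highest proliferation sum, 1038 FPKM. The part of this in the TSC22D3 difference was not tested. In bulk RNA, fewer cells that express a gene and less of its RNA per cell cannot be told apart.

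The other members of the TSC22 family, which share a leucine zipper and a conserved box with GILZ, differed less between the groups. TSC22D1, first described as a gene stimulated by TGF-beta, is on chromosome 13 (44432143 to 44577147). It stood at 3.25, 4.09 and 3.52 FPKM in bryostatin replicates and 5.60, 3.86 and 5.12 FPKM in DMSO replicates. Bryostatin replicate 2 lay above DMSO replicate 2, so the groups overlapped, with a log2 difference of -0.34 ± 0.13 (SE). TSC22D4, on chromosome 7 (100463359 to 100479279), was the only one of the 9 genes with a higher bryostatin mean. Its level was 22.6, 21.9 and 24.5 FPKM in bryostatin replicates, against 22.8, 22.3 and 18.5 FPKM in DMSO replicates. The groups overlapped, and the difference of 0.12 ± 0.10 was 0.03 without DMSO replicate 3. TSC22D2, the remaining family member, averaged 2.28 ± 0.0595 FPKM with bryostatin and 2.26 ± 0.209 FPKM with DMSO. Within the family, TSC22D3 lay below TSC22D4 in all 3 bryostatin libraries and above it in all 3 DMSO libraries, and TSC22D1 averaged 4.24 FPKM over the 6 libraries.

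**Figure D1:**
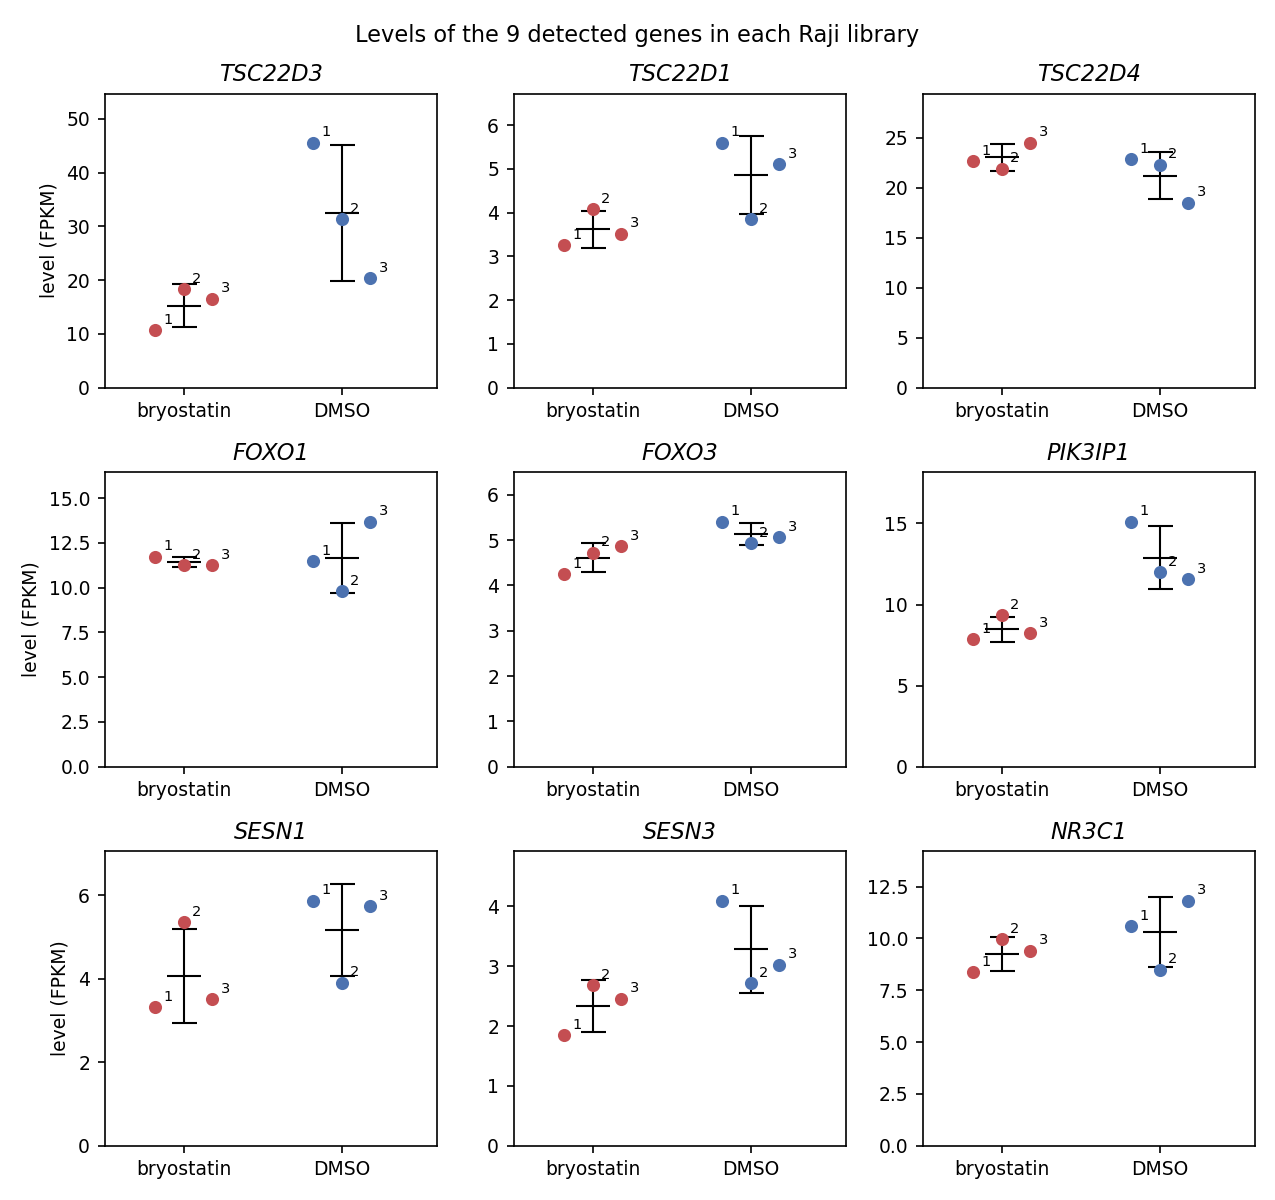
Level in FPKM of the 9 genes with detected transcripts in each library, with bryostatin left of DMSO. Points are libraries marked with their replicate number and bars are the mean ± SD (n = 3). TSC22D3 and PIK3IP1 show the widest separation between groups, with bryostatin means of 15.2 and 8.48 FPKM against DMSO means of 32.4 and 12.9 FPKM, whereas FOXO1 and TSC22D4 overlap.

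The forkhead factors themselves hardly differed in transcript level. FOXO1, which directs early B-cell development and the germinal centre programme, is on chromosome 13 (40469953 to 40666597). It had 11.7, 11.3 and 11.3 FPKM in bryostatin replicates, inside the range of 11.5, 9.81 and 13.7 FPKM in DMSO replicates. The log2 difference of -0.02 ± 0.12 turned to 0.10 without DMSO replicate 3. FOXO3, the family member that induces GILZ, is on chromosome 6 (108559835 to 108684774). It had 4.25, 4.73 and 4.87 FPKM in bryostatin replicates and 5.41, 4.93 and 5.08 FPKM in DMSO replicates. These groups did not overlap, but the bryostatin mean was still 89.8% of the DMSO mean, a log2 difference of -0.13 ± 0.08. Bryostatin replicate 3 and DMSO replicate 2 were separated by less than counting error, with Poisson 95% intervals of 4.54 to 5.21 FPKM and 4.60 to 5.28 FPKM. FOXO4, also a forkhead factor of the family, averaged 3.02 ± 0.488 FPKM with bryostatin and 3.44 ± 0.825 FPKM with DMSO. FOXO6 had a mean level below 1 FPKM and was not tested. AKT regulates FOXO proteins by phosphorylation and export, which RNA levels do not show. The processed pseudogene FOXO3B, whose sequence resembles FOXO3, reached at most 0.518 FPKM, and FOXO1B was at 0, so few reads were assigned to these copies.

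PIK3IP1, a transmembrane inhibitor of the PI3K catalytic subunit, had the second largest difference, after TSC22D3. It is on chromosome 22 (31281593 to 31292534). Its level was 7.87, 9.34 and 8.23 FPKM in bryostatin replicates, against 15.1, 12.0 and 11.6 FPKM in DMSO replicates. All DMSO libraries lay above all bryostatin libraries, and unlike TSC22D3 the within-group spread, 0.16 on the log2 scale, was larger than that of only 59.6% of tested genes. The mean was 8.48 ± 0.766 FPKM with bryostatin and 12.9 ± 1.94 FPKM with DMSO, and the log2 difference -0.55 ± 0.12. The nearest libraries, bryostatin replicate 2 and DMSO replicate 3, had Poisson 95% intervals of 8.67 to 10.1 FPKM and 10.8 to 12.4 FPKM. The difference ran from -0.63 with TPM scaling to -0.43 without DMSO replicate 1. PIK3IP1-AS1 overlaps the gene on the opposite strand and had 0.593, 0.723 and 1.64 FPKM in bryostatin replicates and 1.83, 2.13 and 0.722 FPKM in DMSO replicates. The strand setting of the read counting is not given, so reads of this pair cannot be told apart with certainty.

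Sestrins restrain mTORC1 through the GATOR complexes. SESN1 is a p53 target and SESN3 a FOXO target. SESN3, on chromosome 11 (95165513 to 95232541), was at 1.84, 2.69 and 2.46 FPKM in bryostatin replicates and 4.10, 2.72 and 3.03 FPKM in DMSO replicates. The groups met without overlapping, bryostatin replicate 2 and DMSO replicate 2 having Poisson 95% intervals of 2.47 to 2.92 FPKM and 2.51 to 2.94 FPKM, and with quantile normalisation they overlapped. The log2 difference was -0.36 ± 0.15. SESN1, on chromosome 6 (108986437 to 109094819), had 3.33, 5.36 and 3.51 FPKM in bryostatin replicates and 5.88, 3.91 and 5.75 FPKM in DMSO replicates. Here bryostatin replicate 2 resembled DMSO replicates 1 and 3, and DMSO replicate 2 resembled bryostatin replicates 1 and 3, so the difference of -0.29 ± 0.19 was within the spread of the libraries. SESN2, the stress-induced sestrin, averaged 10.7 ± 0.733 FPKM with bryostatin and 11.2 ± 0.351 FPKM with DMSO. SESN1 lies 301.7 kb from FOXO3 on chromosome 6, the only close pair among the 10 genes.

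NR3C1, the glucocorticoid receptor that induces GILZ, was transcribed in all libraries. It is on chromosome 5 (143277931 to 143435512). Its level was 8.36, 9.97 and 9.41 FPKM in bryostatin replicates and 10.6, 8.49 and 11.8 FPKM in DMSO replicates. The groups overlapped, and the difference of -0.13 ± 0.13 was -0.04 without DMSO replicate 3. The mineralocorticoid receptor NR3C2, which also binds glucocorticoids, lay below 1 FPKM on average.

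KLF2, the zinc-finger factor of lymphocyte quiescence, had 0 reads in all 6 libraries. It is gene ENSG00000127528 on chromosome 19 (16324817 to 16327874, plus strand), and no gene of the table overlaps it. A count of 0 allows up to 3 reads per library, or between 0.0603 and 0.0784 FPKM for this gene of 2018 bases. No fold can be given, as both groups were at 0. Its 4 listed processed pseudogenes were at 0 as well, and the table holds 4940 protein-coding genes at 0 in all libraries out of 19951. The egress receptor S1PR1, which KLF2 controls in mouse lymphocytes and which is named here after its values were seen, reached at most 0.0096 FPKM in a bryostatin library and 0.0191 FPKM in a DMSO library.

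Ordered by mean level over the 6 libraries, TSC22D3 came first at 23.8 FPKM, TSC22D4 next at 22.1 FPKM, followed by FOXO1 at 11.5 FPKM, PIK3IP1 at 10.7, NR3C1 at 9.77, FOXO3 at 4.88, SESN1 at 4.62, TSC22D1 at 4.24 and SESN3 at 2.81 FPKM. FPKM is scaled by a fixed length per gene, whichever of its transcripts are expressed, so the order of genes with close levels is uncertain. Only the steps from TSC22D4 to FOXO1 and from NR3C1 to FOXO3 separated neighbours in both treatments. FOXO1 exceeded PIK3IP1 with no overlap in bryostatin libraries but not in DMSO libraries, and the same held for TSC22D1 above SESN3. The place of TSC22D3 before TSC22D4 held in the 3 DMSO libraries, where the ranges overlapped, and was reversed without overlap in the 3 bryostatin libraries. The other neighbouring genes overlapped in both groups.

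**Figure D2:**
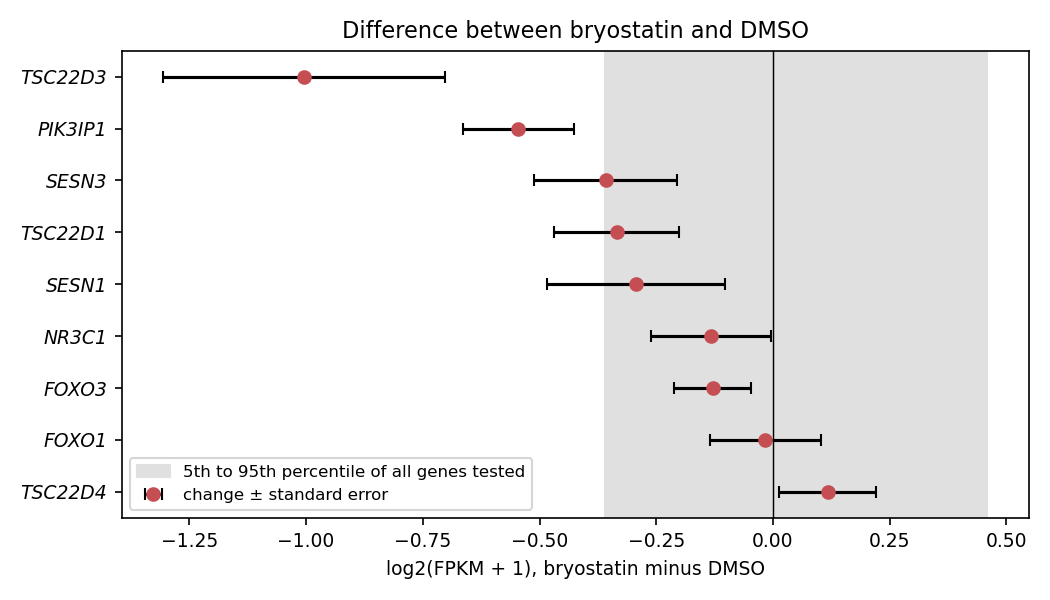
Difference in log2(FPKM + 1), bryostatin minus DMSO, for the 9 genes with its standard error, and in grey the range from the 5th to the 95th percentile of the 11071 genes tested (-0.36 to 0.46). TSC22D3 at -1.0 and PIK3IP1 at -0.55 lie outside this range, SESN3 at -0.36 lies at its lower edge, and the other 6 genes lie inside.

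Set beside the whole table, 8 of the 9 genes had a lower mean with bryostatin, where 46.1% of all tested genes did. The groups did not overlap, with bryostatin lower, for 4 of the 9, where the share over all tested genes was 10.7%, and for 0 of the 9 with bryostatin higher, against 12.9%. Since this contrast was known when the genes were chosen, nothing is read from these counts. The median log2 difference was -0.29 over the 9 genes and 0.02 over all tested genes. In limma, 0 of 11071 genes (0%) had an adjusted p under 0.05, the smallest being 0.121, while 1954 (17.6%) had an unadjusted p under 0.05, 1159 of them higher (10.5%) and 795 lower (7.18%). With TPM scaling these numbers were 848 higher and 1099 lower, and with quantile normalisation 893 higher and 1017 lower. Voom gave 2184 genes at that level and 0 after adjustment.

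Among themselves, the lower genes followed each other over the libraries to unequal degrees. Bryostatin replicate 1 was the lowest of the 6 libraries for 7 of the 9 genes, and DMSO replicate 1 the highest for 6. Pearson's r over the 6 libraries was 0.94 between TSC22D3 and PIK3IP1 and 0.91 between TSC22D3 and SESN3. It was 0.96 between FOXO3 and SESN3 and 0.92 between TSC22D1 and SESN1. It was lower between TSC22D3 and SESN1, at 0.58, between PIK3IP1 and NR3C1, at 0.48, and between TSC22D3 and NR3C1, at 0.33. FOXO1 and TSC22D4 did not follow this order, with r of -0.28 and -0.02 against TSC22D3 and of -0.68 against each other. These values describe 6 libraries, in which the treatment and any difference shared by a library enter every gene at once. Relative to each gene's mean, bryostatin replicate 1 stood at -0.94 for TSC22D3 and -0.40 for SESN3 on the log2 scale, and DMSO replicate 1 at 1.05 and 0.44. The mean of the proliferation genes ran the other way in those libraries, at 0.46 and -0.67. DMSO replicate 3 had 0.22 there, between the bryostatin libraries, and -0.07 for TSC22D3, yet 0.29 for SESN1 and 0.26 for NR3C1, above all 3 bryostatin libraries.

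**Figure D3:**
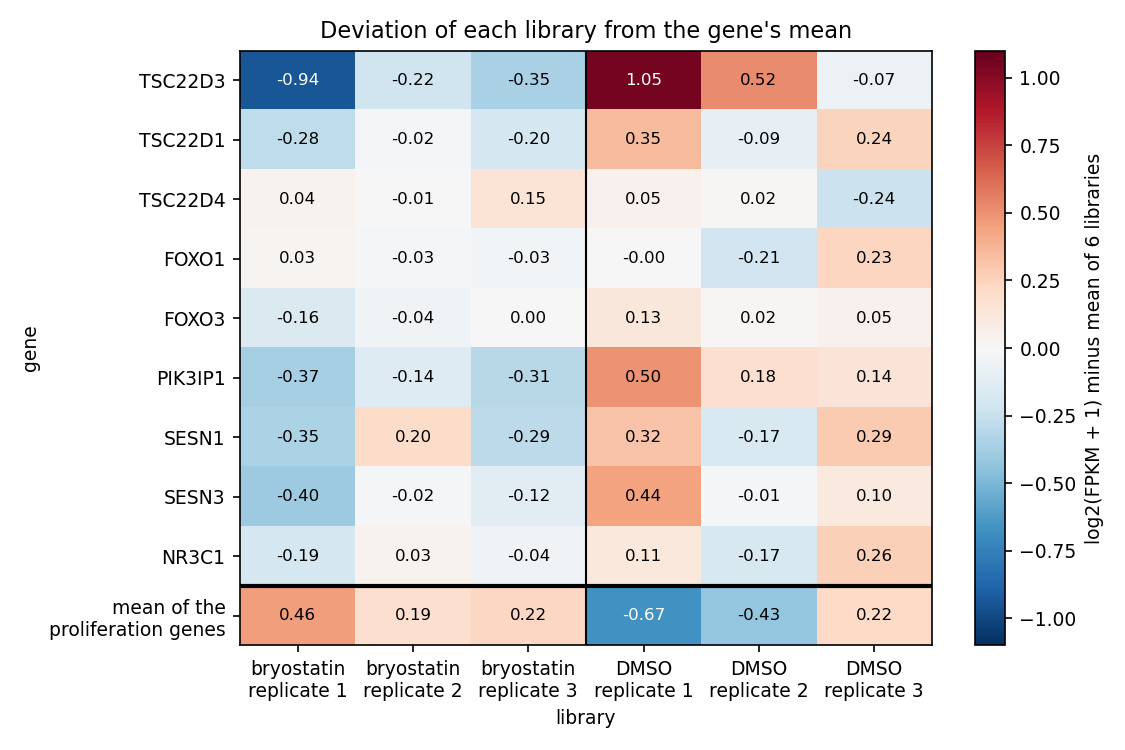
Deviation of each library, in log2(FPKM + 1), from the mean of the gene over the 6 libraries, with bryostatin libraries left of DMSO libraries and the mean of 12 proliferation genes in the bottom row. Bryostatin replicate 1 is lowest in 7 genes, while DMSO replicate 3 has -0.07 for TSC22D3 and 0.22 for the proliferation genes, near the bryostatin libraries.

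For the pathways around these genes, 9 lists with 200 symbols in all were examined, and 145 of the symbols were tested. No list gene had an adjusted p under 0.05 in limma, 25 (17.2%) had an unadjusted p under 0.05, 12 higher and 13 lower, where 17.6% of all tested genes did, and with voom 0 passed after adjustment. Without DMSO replicate 3, HSP90AA1, YWHAH and RBL1 passed, all higher, with adjusted p of 0.0344, 0.0493 and 0.0493, when 267 of all 11071 genes passed. Lists share genes, TXNIP and BCL2L11 for example being on both the FOXO and the glucocorticoid list.

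Of 23 tested FOXO responsive genes, 15 had a lower and 8 a higher mean with bryostatin, with a median log2 difference of -0.07. At an unadjusted p under 0.05, 3 were lower and 0 higher, where 7.18% of all tested genes were lower and 10.5% higher. CCR7, the chemokine receptor that draws lymphocytes into T-cell zones, was at 4.62, 10.7 and 7.93 FPKM in bryostatin replicates and 18.2, 10.8 and 17.7 FPKM in DMSO replicates (adjusted p = 0.227 in limma). The abundant members overlapped between groups. They were BCL6, the germinal centre repressor, with a log2 difference of -0.05, TXNIP, an inhibitor of glucose uptake, with -0.12, and the CDK inhibitor CDKN1A with 0.06.

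Of 13 tested glucocorticoid responsive genes other than TSC22D3, 9 had a lower and 4 a higher mean, with a median log2 difference of -0.12. The differences had both signs. NFKBIA, which encodes the NF-kB inhibitor IkB-alpha, was at 16.9, 25.5 and 21.3 FPKM in bryostatin replicates and 40.7, 30.6 and 26.3 FPKM in DMSO replicates, a log2 difference of -0.59 (adjusted p = 0.232 in limma). DUSP1, a MAP kinase phosphatase, was at 3.11, 2.53 and 2.43 FPKM in bryostatin replicates and 1.59, 2.10 and 1.51 FPKM in DMSO replicates, a log2 difference of 0.43 (adjusted p = 0.217). DDIT4, an inhibitor of mTORC1, had -0.21 ± 0.14 and the chemokine receptor CXCR4 -0.04 ± 0.23.

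Of 16 tested chaperones and cofactors of the glucocorticoid receptor, 9 had a lower and 7 a higher mean. The 7 were the chaperones and their partners, HSP90AA1, HSP90AB1, HSPA8, STIP1, PTGES3, FKBP4 and FKBP5. The 9 were the cofactors, of which SMARCA4 and ARID1A had only -0.02 and -0.01. The list was not divided in this way beforehand, so nothing is read from the division. Without overlap, 6 of the 16 were lower and 1 higher, where 10.7% and 12.9% of all tested genes were. FKBP4, the immunophilin that carries the receptor with HSP90, was at 104.0, 91.5 and 90.3 FPKM in bryostatin replicates and 68.6, 68.8 and 79.6 FPKM in DMSO replicates (log2 difference 0.39, adjusted p = 0.217 in limma). The coactivator NCOA3 was at 24.3, 28.8 and 26.2 FPKM in bryostatin replicates and 36.7, 32.1 and 35.1 FPKM in DMSO replicates (log2 difference -0.38, adjusted p = 0.217). The groups of either gene did not overlap. The HSP90 chaperones HSP90AB1 and HSP90AA1 and the chaperone HSPA8 had higher bryostatin means, with 0.18 ± 0.15, 0.56 ± 0.25 and 0.46 ± 0.25, but DMSO replicate 3 lay in or above the bryostatin range in each.

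In the PI3K and AKT list, 12 of 19 tested genes had a lower mean and 7 a higher one, with a median of -0.04. INPP5D, the lipid phosphatase SHIP1 that opposes PI3K, was at 19.5, 17.98 and 20.2 FPKM in bryostatin replicates and 26.3, 24.4 and 22.4 FPKM in DMSO replicates, without overlap (log2 difference -0.32, adjusted p = 0.217 in limma). The AKT coactivator TCL1A and the catalytic subunit PIK3CD, both among the most abundant members, had 0.29 ± 0.16 and -0.17 ± 0.12. Of 35 tested genes of the sestrin, GATOR and mTORC1 pathway, 18 had a lower and 17 a higher mean. LAMTOR4, a Ragulator subunit that anchors Rag GTPases at the lysosome, was at 60.0, 56.4 and 48.4 FPKM in bryostatin replicates and 45.0, 48.1 and 33.9 FPKM in DMSO replicates (log2 difference 0.38, adjusted p = 0.265). Its partners LAMTOR2 and LAMTOR5 had 0.30 ± 0.10 and 0.21 ± 0.11. CASTOR2, an inhibitor of GATOR2, had the largest lower difference without overlap, at -0.38 ± 0.14.

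Of the regulators of FOXO protein, 13 of 19 had a higher and 6 a lower mean, with a median of 0.12. The named members are 14-3-3 proteins, which hold phosphorylated FOXO in the cytoplasm. YWHAH was at 52.7, 45.2 and 45.6 FPKM in bryostatin replicates and 30.3, 33.1 and 45.2 FPKM in DMSO replicates, DMSO replicate 3 almost reaching the lowest bryostatin library (log2 difference 0.41, adjusted p = 0.252 in limma). YWHAQ, YWHAZ and YWHAE had 0.29 ± 0.14, 0.06 ± 0.11 and 0.16 ± 0.12 with overlapping groups. Of 7 tested KLF family genes, 5 had a lower and 2 a higher mean. KLF13 and KLF12 had -0.18 ± 0.11 and -0.18 ± 0.09, both lower without overlap, and KLF10 had -0.08 ± 0.11. For KLF13 the groups nearly met, at 29.70 FPKM in bryostatin replicate 2 and 29.76 FPKM in DMSO replicate 2. KLF16 had 0.32 ± 0.10 and was higher without overlap. Of the 7 genes, 2 were thus lower and 1 higher without overlap, where 10.7% and 12.9% of all tested genes were.

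Of 26 tested quiescence regulators outside the 10 genes, 16 had a higher and 10 a lower mean, with a median of 0.08. CDKN2D, the CDK4 and CDK6 inhibitor p19, was at 7.75, 7.08 and 6.81 FPKM in bryostatin replicates and 5.64, 4.95 and 5.12 FPKM in DMSO replicates (log2 difference 0.40, adjusted p = 0.216 in limma). PNRC1, a nuclear receptor coactivator, was at 16.2, 14.5 and 15.6 FPKM in bryostatin replicates and 20.7, 17.6 and 25.6 FPKM in DMSO replicates (log2 difference -0.43, adjusted p = 0.227). BTG2, an antiproliferative gene, had -0.31 ± 0.16, CDKN2C 0.34 ± 0.20 and the mRNA decay factor ZFP36L1 0.07 ± 0.50. At an unadjusted p under 0.05, 2 of the list were higher and 2 lower, beside 10.5% and 7.18% of all tested genes.

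**Figure D4:**
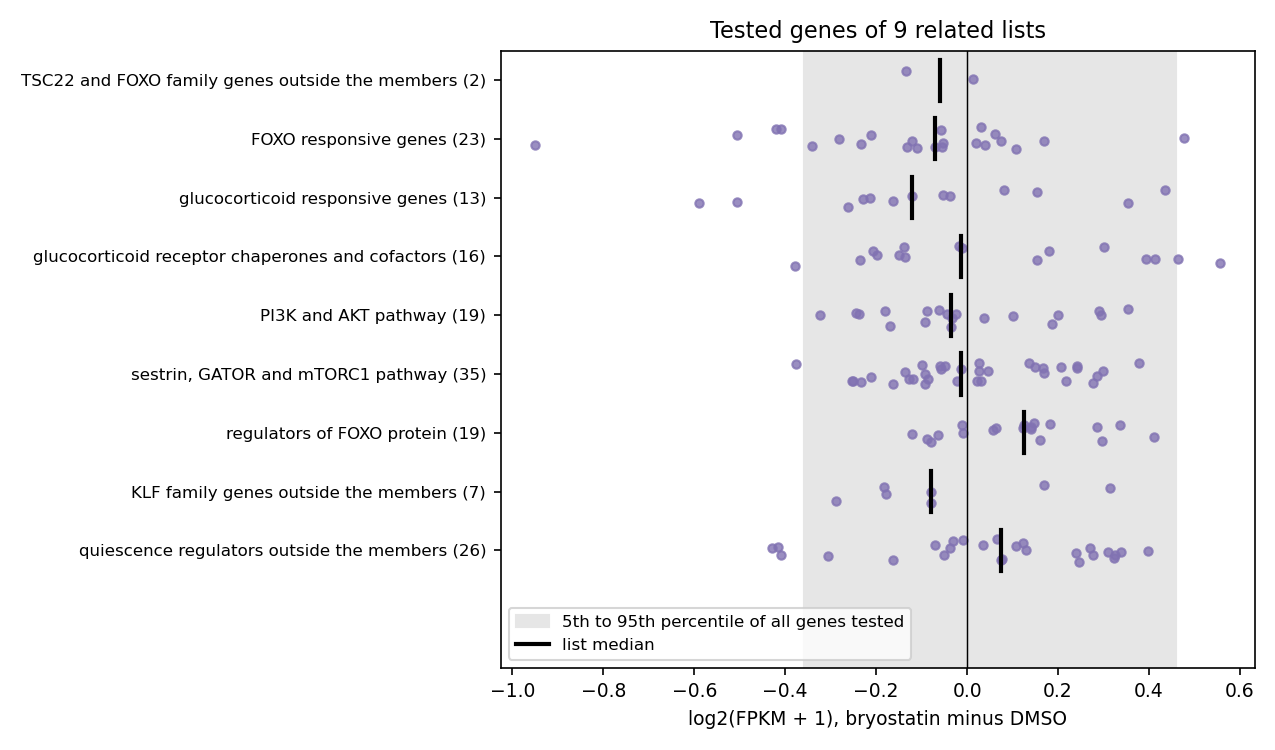
Difference in log2(FPKM + 1), bryostatin minus DMSO, of each tested gene of the 9 related lists (number tested in brackets), with the list median as a black line and in grey the 5th to 95th percentile of all genes tested. Medians run from -0.12 for glucocorticoid responsive genes to 0.12 for regulators of FOXO protein, and CCR7 at -0.95 is the lowest point.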

How the data were processed

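The authors deposited 1 table of FPKM per gene, with gene lengths. Per the submitters' processing notes, DESeq2 1.20.0, featureCounts 1.5.0-p3, HISAT2 2.0.5 and CASAVA were used with hg38, in roles that the notes leave out. The sources used here do not give strand setting, filters or annotation release. All 58735 gene coordinates equal those of GENCODE 29. Multiplying by gene length and dividing by what 1 read is worth returned whole reads, to within 0.001, for 100% of entries. The worth of 1 read did not follow the recovered reads exactly. In FPKM times bases it was 45.6 in DMSO replicate 2, with 21379437 reads, and 46.3 in bryostatin replicate 3, with 21406275 reads.

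The fit used limma (3.58.1, under R 4.3.3) with a trended prior on log2(FPKM + 1), for genes averaging 1 FPKM or more, with 3 bryostatin and 3 DMSO libraries. Adjusted p-values are Benjamini-Hochberg over 11071 genes, with a threshold of 0.05. An exact permutation test of 3 against 3 cannot go below p = 0.1. The fit was tested on simulated data. The 10 genes and all lists were chosen with earlier results of these data known. From each list the 3 most abundant genes and the largest rise and fall without overlap were named, and others are said to be chosen after seeing values. A gene of these is not reported here. Proliferation genes were added later. The alternatives covered pseudocount, filter, scaling, moderation, voom on recovered reads, replicate block and left-out libraries. No pair of libraries of 1 group differed by sampling noise alone, with a chi-square of at least 10.5 per gene.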

Additional observations from a re-analysis of the deposited data

How the results depend on the processing

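The count of genes with an adjusted p under 0.05, 0 in the comparison itself, became 1 with a pseudocount of 0.1 and 1 with TPM scaling, and ranged from 0 to 267 with 1 library left out, the 267 arising without DMSO replicate 3. Why these counts moved was not tested. At an unadjusted p under 0.05 the count of 1954 ranged from 913, without bryostatin replicate 1, to 2861, without DMSO replicate 3, and was 969 without DMSO replicate 1. With the replicate number as a block it was 1191. Same-numbered libraries of the 2 groups deviated with correlations of -0.29, -0.32 and -0.11, so the numbers do not pair them, and no library correlated best with its own number. Calls among list genes, a count whose alternatives were added after seeing the data, ranged from 0 to 3 with 1 library left out and were 0 otherwise. The median log2 difference of the 10 genes' detected members ran from -0.45 without DMSO replicate 2 to -0.13 with a filter at 5 FPKM, which leaves 5 of them. FOXO1 alone changed sign, without DMSO replicate 3. No member moved by more than its within-group SD, but with 1 library left out a difference cannot move that far. The filter, moderation and block settings leave the difference of a gene unchanged by design. Nothing is therefore read from this for those settings. For KLF2, the count of 0 leaves levels up to 0.0603 to 0.0784 FPKM possible at this depth, depending on the library.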

Other observations

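By a rule on likeness to TSC22D3, the protein-coding genes whose log2(FPKM + 1) followed it most closely over the 6 libraries were OPTN, IGBP1, PTGS1, CHD2 and CNNM2. Each had Pearson's r between 0.995 and 0.996 and Spearman's rho of 1, among 9264 genes compared. Such likeness is common over 6 libraries, as 536 genes (5.79%) had r above 0.9. IGBP1, a regulatory partner of PP2A-like phosphatases, was at 24.8, 31.3 and 29.4 FPKM in bryostatin replicates and 42.9, 38.0 and 33.0 FPKM in DMSO replicates. PTGS1, the constitutive cyclooxygenase, was at 1.47, 2.71 and 2.40 FPKM in bryostatin replicates and 5.26, 3.80 and 2.76 FPKM in DMSO replicates. OPTN, an autophagy receptor, was at 0.759, 1.18 and 1.17 FPKM in bryostatin replicates and 2.46, 2.01 and 1.41 FPKM in DMSO replicates.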
